A study of Sus scrofa with 2 samples.

Results

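Genes of the WNT pathway were examined in follicular granulosa cells of Chinese Erhualian pigs, the somatic cells that line the ovarian follicle and nurse the oocyte. Cells had received SMAD4-siRNA, a small interfering RNA against the common-mediator SMAD of TGF-beta, activin and BMP signalling, or NC-siRNA, a control siRNA. The members are the 52 messenger RNA entries, of 34570 entries in the deposited tables, whose symbols mark a WNT ligand, a Frizzled or LRP receptor, a secreted antagonist (SFRP, DKK), a gene of the R-spondin axis (RSPO, LGR, RNF43, ZNRF3), a cytoplasmic component (DVL, AXIN, APC, GSK3, CTNNB1) or a TCF/LEF factor. Each condition is 1 library made from the pooled RNA of 3 female pigs, so every difference is one between 2 libraries, with no replicate and no test between conditions. The labels give no age and no dose or time of treatment, and do not say whether both pools came from the same animals, so a difference between animals and one between siRNAs cannot be told apart.

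WNT proteins are secreted lipid-modified ligands that bind Frizzled receptors together with LRP5 or LRP6. Without a ligand, AXIN, APC and the GSK3 kinases mark beta-catenin (CTNNB1) for destruction. With a ligand, Dishevelled (DVL) proteins disable that complex and beta-catenin enters the nucleus to act with TCF/LEF factors. In the rodent ovary, beta-catenin takes part in FSH-driven oestrogen synthesis in granulosa cells, and mice without FZD4 are infertile with a defect of the corpus luteum.

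Levels are given as deposited, in reads per kilobase scaled by the upper quartile of the library (UQRPKM), a scale on which genes can be compared per length. The values fall on steps of whole reads, which gave at least 17394711 reads on genes in the SMAD4-siRNA library and 17680952 in the NC-siRNA library, of which the members held 70961 and 78894. Read numbers are the smallest that the values allow, and a bracketed span beside a ratio is the exact 95% Clopper-Pearson interval for the split of those reads. Such spans cover counting error only, neither animals nor transfections, and reads are not independent molecules. SMAD4 itself was at 47.9 UQRPKM in the SMAD4-siRNA library against 85.0 in the NC-siRNA library, a ratio of 0.563 (0.497 to 0.639). The targeted message was thus lower in the library labelled as its knockdown, and still present.

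Of the 52 members, 38 had reads in both libraries, 4 had reads in 1 library and 10 were listed at 0 in both. The libraries shared the same dominant genes, and most members differed little between them. Among the 38 members with reads in both libraries, levels spanned from under 1 UQRPKM for WNT7A in the SMAD4-siRNA library to 13537 UQRPKM for DKK3 in the NC-siRNA library. Past 2-fold on the scale of log2(value + 1), 2 of the 37 members with a mean level of 1 or more were higher and 0 were lower, against 7.17% and 6.68% of all 16609 genes at that level. The 2 were RNF43 and WNT3, which rest on 25 and 5 reads over both libraries. A counting interval lay wholly above 1 for 4 members, where 12.7% of all genes had one, and wholly below 1 for 8 members (21.6% of 37), where 21.5% had one. Among the 27 members with at least 100 reads, a minimum added after the values were known, 0 passed 2-fold in either direction (all such genes 1.32% higher and 1.12% lower), 3 intervals lay above 1 (17.6%) and 8 below (32.4%). These shares were near or under the background, so these counts are no result about the pathway. The median log2 ratio of the 37 members was -0.12, beside -0.05 over all genes tested.

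A count of directions depends on the scaling. On the deposited scale 24 of 37 members (64.9%) were lower and 13 higher, where 54.5% of all genes tested were lower. Rescaling both tables to the same sum, as for TPM, adds 0.12 to the log2 of every plain ratio and turns plain ratios between 0.921 and 1 to the other side, after which 19 were lower and 18 higher by plain ratio. On the log2(value + 1) scale the rescaling also shrinks the ratios of low genes, since the values become smaller beside the 1 added. Centred on the median of all genes, 20 were lower and 17 higher.

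**Figure D1:**
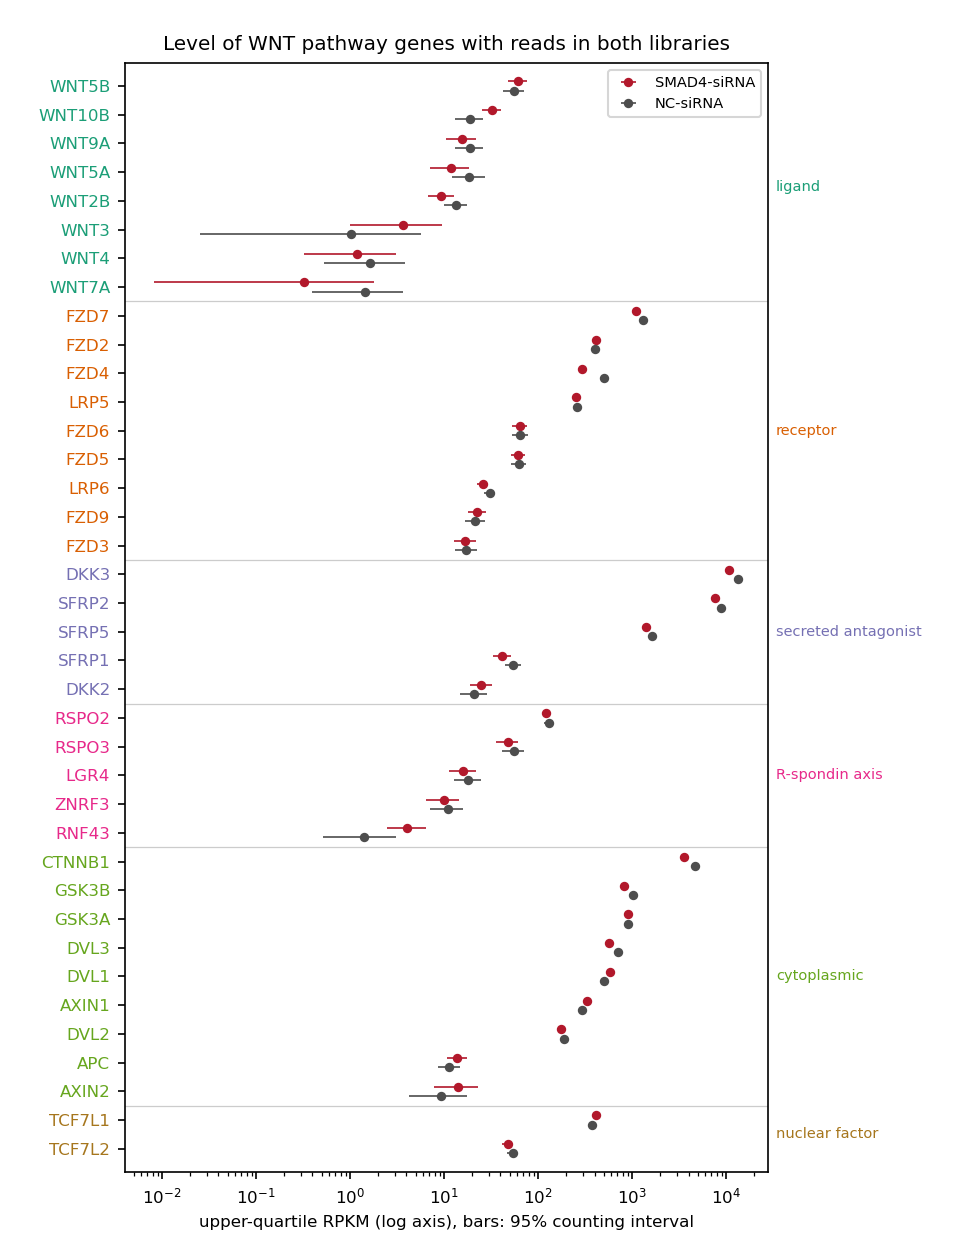
Level of the 38 members with reads in both libraries, in UQRPKM on a log axis, SMAD4-siRNA in red above NC-siRNA in grey in each row; bars are exact 95% Poisson counting intervals. DKK3, SFRP2 and CTNNB1 are highest in both libraries, and the WNT ligands all lie below 100 UQRPKM.

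Ligands were the scarcest class. WNT genes encode the secreted signals of the pathway. Of 15 WNT entries, WNT1, WNT3A, WNT8A, WNT8B and WNT11 were listed at 0 in both libraries, and WNT2 and WNT16 had 1 and 2 reads in the NC-siRNA library and were listed at 0 in the SMAD4-siRNA library. A listed 0 says nothing certain about expression. The summed level of all 15 was 136 UQRPKM in the SMAD4-siRNA library and 131 in the NC-siRNA library.

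WNT5B, a ligand best known for signalling without beta-catenin, led the class, with 61 UQRPKM in the SMAD4-siRNA library and 55.6 in the NC-siRNA library, a ratio of 1.10 (0.774 to 1.56). It made up 45.0% and 42.5% of the level summed over the 15 WNT members. WNT10B, a ligand of the beta-catenin branch, was at 32.4 UQRPKM in the SMAD4-siRNA library, from 70 reads, against 18.9 in the NC-siRNA library, from 37 reads. Its ratio of 1.72 (1.14 to 2.63) made it the only one of the 15 WNT members with an interval that excludes 1. Its share of the level summed over these members was 23.9% in the SMAD4-siRNA library against 14.4% in the NC-siRNA library. Relative to WNT5B, however, WNT10B was 1.57-fold higher with an interval that holds 1 (0.904 to 2.73). In the NC-siRNA library WNT10B, WNT9A and WNT5A were level, between 18.7 and 18.9 UQRPKM. In the SMAD4-siRNA library WNT10B stood above WNT9A (15.5) beyond the counting intervals, while WNT9A, WNT5A (12) and WNT2B (9.42) did not separate from each other.

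WNT5A, which acts through ROR2 and other receptors on cell shape and movement, had a ratio of 0.639 (0.336 to 1.19) on 19 reads after SMAD4-siRNA and 27 after NC-siRNA. WNT2B was at a ratio of 0.703 (0.456 to 1.08) and WNT9A at 0.828 (0.492 to 1.39). For all 3 the interval holds 1, so neither direction is established by the reads. WNT4, which in the mouse is needed for female gonad development, was close to the limit of detection, with 4 reads after SMAD4-siRNA and 5 after NC-siRNA. WNT3 had 4 reads after SMAD4-siRNA and 1 after NC-siRNA, a ratio of 3.63 (0.359 to 179), so its place among the 2-fold calls carries no weight. WNT7A had 1 read after SMAD4-siRNA and 4 after NC-siRNA.

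FZD4 showed the clearest difference among the receptors. Frizzled proteins are the seven-pass receptors of WNT ligands, and FZD4 also binds Norrin, a ligand unrelated to WNTs. FZD4 was at 297 UQRPKM in the SMAD4-siRNA library, from 2025 reads, against 510 in the NC-siRNA library, from 3161 reads. The ratio was 0.582 (0.550 to 0.615), about as low as that of SMAD4 itself, and 2.70% of the 9664 genes with at least 100 reads had a lower one. It did not reach 2-fold. FZD7, the leading Frizzled of these cells, had 1093 UQRPKM in the SMAD4-siRNA library and 1305 in the NC-siRNA library, a ratio of 0.837 (0.786 to 0.891).

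The other Frizzleds were near a ratio of 1. FZD2, which can carry WNT5A signals, was at 411 UQRPKM after SMAD4-siRNA and 407 after NC-siRNA, a ratio of 1.01 (0.886 to 1.15). FZD3, FZD5, FZD6 and FZD9 had ratios between 0.974 and 1.05, each with an interval that holds 1. These 4 were low, at 16.9 to 64.5 UQRPKM after SMAD4-siRNA and 17.3 to 64.7 after NC-siRNA. The order of the leading Frizzleds differed between the libraries beyond the counting intervals: after SMAD4-siRNA it was FZD7, FZD2, FZD4, and after NC-siRNA FZD7, FZD4, FZD2. FZD4 took 15.1% of the summed Frizzled level in the SMAD4-siRNA library against 21.4% in the NC-siRNA library, while FZD7 took 55.6% and 54.7%. FZD5 and FZD6 did not separate from each other in either library, nor did FZD9 and FZD3.

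The co-receptors LRP5 and LRP6, single-pass proteins that AXIN binds after ligand engagement, differed in level. LRP5 was at 255 UQRPKM after SMAD4-siRNA and 260 after NC-siRNA, a ratio of 0.982 (0.892 to 1.08). LRP6 was at 25.8 and 30.7, a ratio of 0.841 (0.698 to 1.01).

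**Figure D2:**
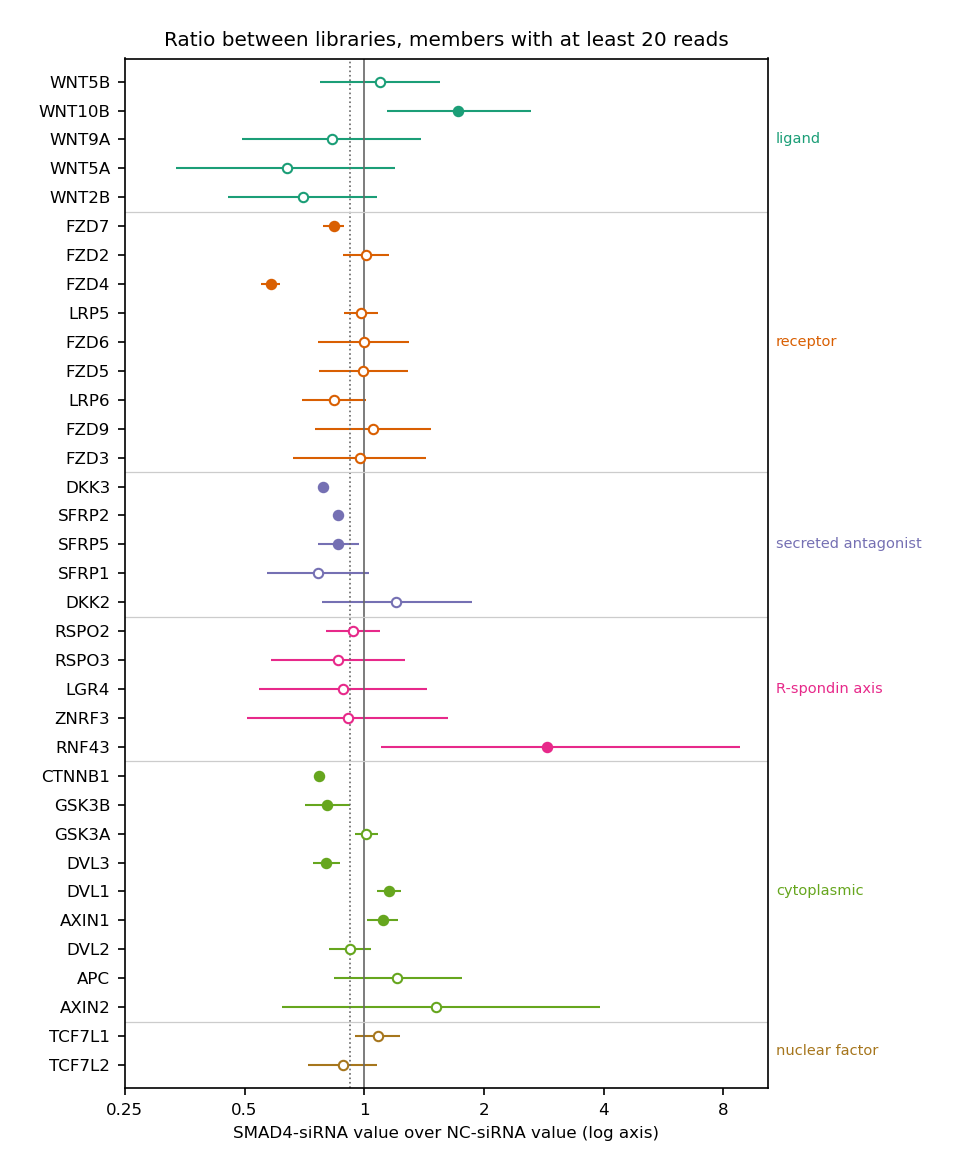
Ratio of the SMAD4-siRNA value to the NC-siRNA value, on a log axis, for the members with at least 20 reads over both libraries; bars are exact 95% counting intervals, filled points have an interval that excludes 1, and the dotted line marks the ratio of 0.921 that becomes 1 when both tables are rescaled to the same sum. FZD4 at 0.582 lies apart from the other receptors, and RNF43 at 2.88 has a wide interval.

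The most abundant members, DKK3 and SFRP2, were secreted antagonists. They ranked 161st and 232nd by mean level among the 16609 genes tested. SFRP5 ranked 1162nd, below CTNNB1 at 424th. DKK3, a divergent Dickkopf that, unlike DKK1, is not known as an LRP6 blocker, was at 10646 UQRPKM in the SMAD4-siRNA library and 13537 in the NC-siRNA library, a ratio of 0.786 (0.774 to 0.799). SFRP2, a secreted protein that shares the WNT-binding domain of Frizzleds, was at 7615 UQRPKM after SMAD4-siRNA and 8839 after NC-siRNA, a ratio of 0.861 (0.842 to 0.881). SFRP5, of the same family, was at 1415 and 1645, a ratio of 0.860 (0.764 to 0.97). All 3 were thus modestly lower, with intervals below 1, though that of SFRP5 holds 1 once both tables are rescaled to the same sum.

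SFRP1 was far scarcer, at 41.8 UQRPKM after SMAD4-siRNA and 54.5 after NC-siRNA, with a ratio of 0.767 (0.570 to 1.03). DKK2, which can block or weakly activate LRP6 depending on context, was at 25.1 UQRPKM and 20.9, a ratio of 1.20 (0.783 to 1.86). DKK1 and DKK4, the LRP5 and LRP6 blockers, were listed at 0 in both libraries. The balance within the SFRP family hardly differed: SFRP2 made up 83.9% of its summed level in both libraries and SFRP5 15.6% in both. The antagonists together summed to 19743 UQRPKM after SMAD4-siRNA and 24096 after NC-siRNA, against 1966 and 2388 for the Frizzleds. DKK3, the divergent Dickkopf, alone made up 53.9% of the antagonist sum after SMAD4-siRNA and 56.2% after NC-siRNA.

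The R-spondin axis amplifies WNT signals: R-spondins, held by LGR receptors, remove the ubiquitin ligases RNF43 and ZNRF3, which otherwise clear Frizzleds from the membrane. RSPO2 was the leading R-spondin, at 122 UQRPKM after SMAD4-siRNA and 130 after NC-siRNA, a ratio of 0.939 (0.803 to 1.10). RSPO3 was at 47.5 and 55.2, a ratio of 0.861 (0.585 to 1.27). RSPO1, which in the mouse acts with WNT4 in ovary formation, was listed at 0 in both libraries, also under a second entry that the reference table gives that name. RSPO4 had 1 read, after NC-siRNA. LGR4 was the single R-spondin receptor with reads, at 16.0 UQRPKM after SMAD4-siRNA and 18.1 after NC-siRNA, a ratio of 0.884 (0.543 to 1.44), while LGR5 and LGR6 were listed at 0.

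Of the ubiquitin ligases, ZNRF3 had 26 reads in each library. RNF43, which is also a known target of beta-catenin, was at 4.09 UQRPKM in the SMAD4-siRNA library, from 19 reads, against 1.42 in the NC-siRNA library, from 6 reads. Its ratio was 2.88 (1.10 to 8.80), with a lower bound close to 1.

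In the cytoplasm, beta-catenin was the dominant member. CTNNB1, which links cadherins to actin as well as carrying the WNT signal, was at 3579 UQRPKM in the SMAD4-siRNA library, from 13291 reads, against 4645 in the NC-siRNA library, from 15664 reads. The ratio of 0.771 (0.753 to 0.789) was low, though 14.9% of genes with at least 100 reads had a lower one. Components of the destruction complex lay on both sides of 1. GSK3B, a kinase that phosphorylates beta-catenin, was at 829 UQRPKM after SMAD4-siRNA and 1027 after NC-siRNA, a ratio of 0.807 (0.708 to 0.921), whereas its paralog GSK3A was at 919 and 908, a ratio of 1.01 (0.95 to 1.08). AXIN1, the scaffold of the complex, was at 330 UQRPKM after SMAD4-siRNA and 297 after NC-siRNA, a ratio of 1.11 (1.02 to 1.22). APC, which helps AXIN hold beta-catenin, was at 13.8 and 11.4, a ratio of 1.21 (0.839 to 1.76). AXIN2, an AXIN paralog switched on by beta-catenin and often used as a readout of the pathway, had 15 reads after SMAD4-siRNA and 9 after NC-siRNA, a ratio of 1.51 (0.621 to 3.92).

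Of the 3 Dishevelled genes, which relay the signal from Frizzleds, DVL1 and DVL3 lay on opposite sides of 1. DVL1 was at 587 UQRPKM after SMAD4-siRNA and 509 after NC-siRNA, a ratio of 1.15 (1.07 to 1.24). DVL3 was at 567 and 705, a ratio of 0.804 (0.744 to 0.868). DVL2 was at 175 and 190, a ratio of 0.920 (0.814 to 1.04). DVL1 thus provided 44.2% of the summed DVL level in the SMAD4-siRNA library against 36.2% in the NC-siRNA library, and DVL3 42.7% against 50.2%. After NC-siRNA, DVL3 stood above DVL1 beyond the counting intervals, and after SMAD4-siRNA the 2 did not separate.

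Among nuclear factors, TCF7L1, which mostly represses WNT targets until beta-catenin binds it, was the leading member at 411 UQRPKM after SMAD4-siRNA and 381 after NC-siRNA, a ratio of 1.08 (0.947 to 1.23). TCF7L2 was at 47.7 and 54.1, a ratio of 0.882 (0.723 to 1.08). LEF1 had 1 read, after SMAD4-siRNA, and was listed at 0 after NC-siRNA.

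Relative changes within a family do not depend on how the libraries are scaled. The 32 pairs of same-family members with at least 100 reads each were compared, an addition made after the values were known. The exact 95% interval of the ratio of ratios excluded 1 in 10, without adjustment for the number of pairs. Pairs of other genes were not compared, so this count has no background share and is no result about the families. FZD4 was lower relative to each of the 6 other Frizzleds, which makes up 6 of the 10. Relative to FZD4, FZD7 was 1.44-fold higher in the SMAD4-siRNA library than in the NC-siRNA library (1.32 to 1.57), and FZD2 was 1.74-fold higher (1.5 to 2.0). FZD2 was also higher relative to FZD7, by 1.21-fold (1.04 to 1.40). DVL1 was 1.44-fold higher relative to DVL3 (1.29 to 1.60) and 1.25-fold higher relative to DVL2 (1.09 to 1.45). GSK3A was 1.25-fold higher relative to GSK3B (1.08 to 1.45). None of the pairs among the SFRP, LRP, R-spondin, TCF7L or WNT genes excluded 1, SFRP2 against SFRP5 being at 1.0 (0.887 to 1.13). The WNT genes gave only 1 pair, WNT10B against WNT5B, at 1.57 (0.904 to 2.73).

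**Figure D3:**
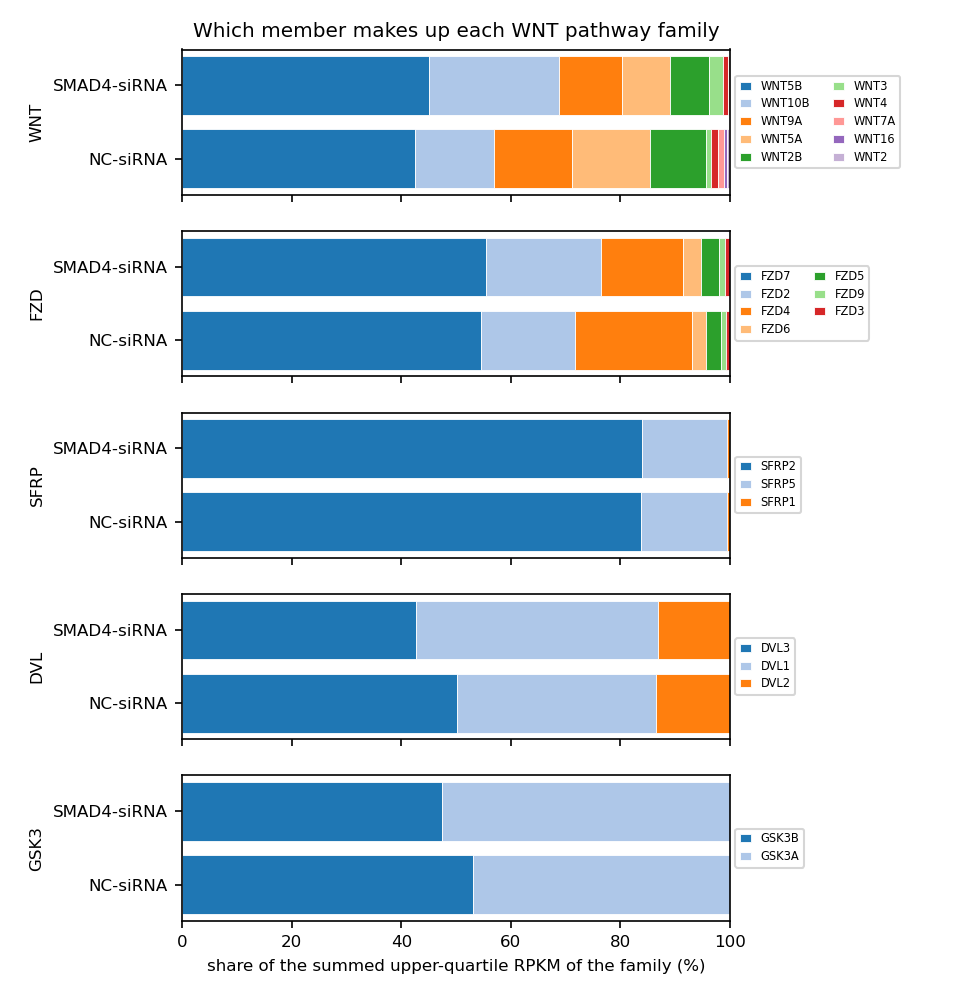
Share of each member in the summed UQRPKM of its family, in percent, with the SMAD4-siRNA bar above the NC-siRNA bar for the WNT, FZD, SFRP, DVL and GSK3 genes. FZD4 takes 15.1% of the Frizzled sum in the SMAD4-siRNA library against 21.4% in the NC-siRNA library, and the SFRP bars are nearly identical.

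**Figure D4:**
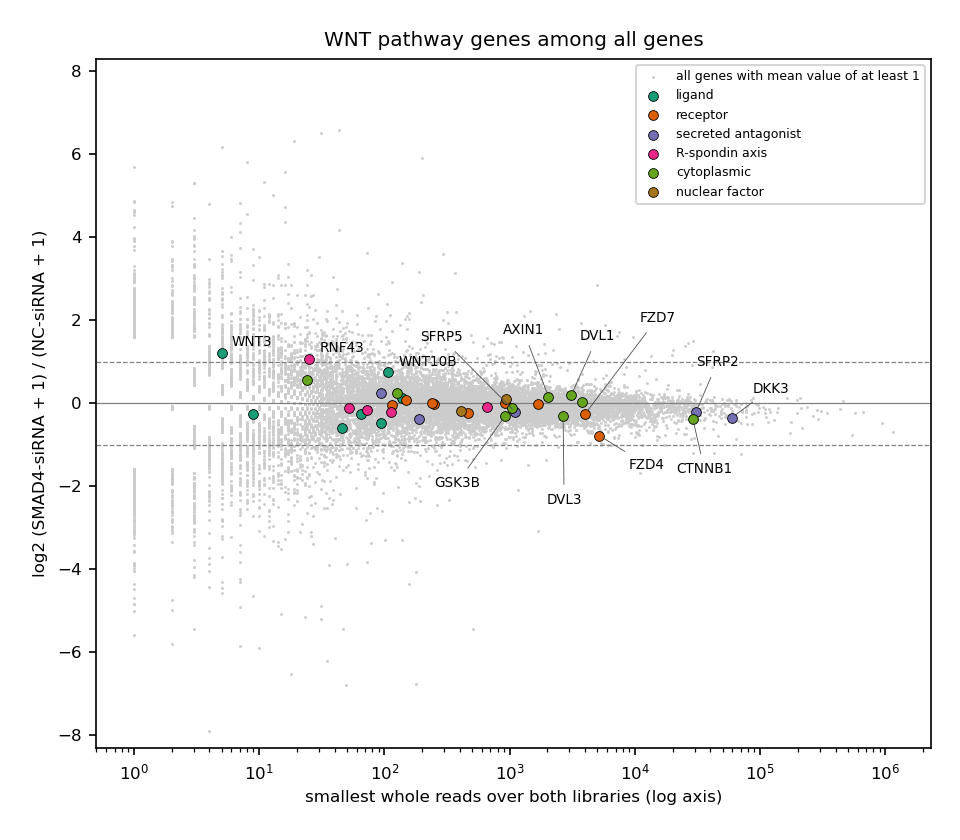
Log2 ratio of (SMAD4-siRNA + 1) over (NC-siRNA + 1) against the smallest whole reads over both libraries (log axis), for all 16609 genes tested in grey and the 37 members in colour by role; dashed lines mark 2-fold. Most members lie within the grey cloud around 0, and FZD4 lies near its lower edge at its read number.

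The members were set beside 3 further lists of pathway genes. Counts of intervals in these lists are on the deposited scale alone. Rescaling to the same sum, where a ratio of 0.921 becomes 1, would change them, and they were not repeated on that scale. Of the genes that make, modify or otherwise receive WNTs, 28 were tested, with a median log2 ratio of -0.21. Of the 22 with at least 100 reads, 13 had an interval below 1, where 32.4% of all such genes had one. Over the whole list 2 intervals lay above 1, where 12.7% of all genes tested had one. They were those of IGFBP4, an IGF-binding protein that can also block Frizzleds, at 1.37 (1.29 to 1.46), and NDP. By log2(value + 1), the lowest among those with at least 20 reads were GPC3 at 0.605 (0.243 to 1.44), KREMEN1, a DKK co-receptor, at 0.653 (0.563 to 0.757), and FRZB, an SFRP-like WNT antagonist, at 0.666 (0.615 to 0.721). FRZB was at 473 UQRPKM after SMAD4-siRNA and 710 after NC-siRNA. Highest beside IGFBP4 were TRABD2B at 2.08 (0.808 to 5.97) and CELSR1 at 1.28 (0.924 to 1.78). WLS, which carries WNTs to the cell surface, was at 1763 UQRPKM after SMAD4-siRNA and 2296 after NC-siRNA, a ratio of 0.768 (0.730 to 0.808), and PORCN, which attaches their lipid, had a ratio of 0.905 (0.853 to 0.959). NDP, which encodes the FZD4 ligand Norrin, was the only gene of the list past 2-fold, at a ratio of 9.08 (1.29 to 394) on 10 reads after SMAD4-siRNA and 1 after NC-siRNA. Of all genes tested, 7.17% were higher by 2-fold. WLS, PORCN and NDP were picked out after their values were seen.

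Beta-catenin regulators and nuclear cofactors had a median log2 ratio of -0.17 over 36 genes. An interval lay below 1 for 16 of the 31 with at least 100 reads, and above 1 for 1, against 32.4% and 17.6% of all such genes. The lowest were CSNK1G1 at 0.505 (0.35 to 0.721) and CSNK1G3 at 0.705 (0.512 to 0.968), casein kinases of the gamma type that phosphorylate LRP6, and TLE4, a Groucho corepressor of TCF factors, at 0.689 (0.614 to 0.772). The highest were PYGO1 at 1.82 (0.968 to 3.54), TLE3 at 1.66 (0.789 to 3.69) and the acetyltransferase CREBBP at 1.35 (0.951 to 1.94), each with an interval that holds 1. TLE3 has a second entry, at 0.559 (0.201 to 1.45). The interval above 1 was that of TLE1, at 1.17 (1.06 to 1.28), a gene named after its values were seen. The gene past 2-fold was NLK, on 4 reads after SMAD4-siRNA and 1 after NC-siRNA, where 7.17% of all genes tested were higher by 2-fold. NLK too was named after its values were seen.

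Genes known as WNT or beta-catenin targets in other systems lay on both sides of 1. Of 32 tested, 6 of the listed genes being members themselves, 3 had an interval above 1 and 11 one below, against 12.7% and 21.5% of all genes tested. All 11 were among the 22 with at least 100 reads, where 32.4% of all genes had an interval below 1. The median log2 ratio was -0.14. SOX9, a transcription factor of testis and cartilage development, was at 19.9 UQRPKM after SMAD4-siRNA, from 36 reads, against 3.04 after NC-siRNA, from 5 reads, a ratio of 6.54 (2.56 to 21.3). RNF43 and AXIN2 came next. CCND1, the G1 cyclin, was at 1.23 (1.07 to 1.43), MYC at 0.877 (0.804 to 0.956) and CCN1 at 0.789 (0.777 to 0.802), all 3 named after their values were seen. The lowest were RUNX2 at 0.30 (0.202 to 0.436), TNFRSF19 at 0.551 (0.283 to 1.04) and ID2 at 0.585 (0.544 to 0.629). RUNX2 and ID2 are also known to answer to TGF-beta or BMP signals. Whether their values here have to do with SMAD4 was not tested. RUNX2 has a second entry with more reads, 255 after SMAD4-siRNA and 275 after NC-siRNA, at a ratio of 0.842 (0.707 to 1.002), so the low value holds for 1 of 2 entries.

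**Figure D5:**
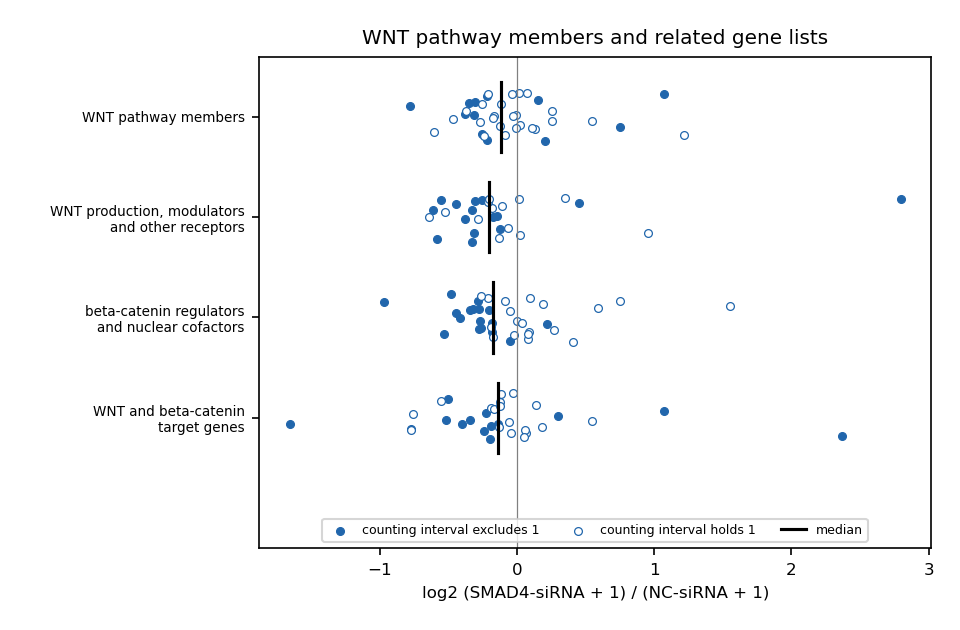
Log2 ratio of (SMAD4-siRNA + 1) over (NC-siRNA + 1) for the 37 members tested and for the tested genes of the 3 further lists, 1 point per gene, with the median of each list as a black bar; filled points have a counting interval that excludes 1. All 4 medians lie between -0.21 and -0.12.

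Granulosa identity was checked against 19 marker genes. GATA4, WT1, FOXL2 and NR5A1 were present, with 774, 509, 146 and 225 UQRPKM after SMAD4-siRNA, against 748, 521, 132 and 265 after NC-siRNA. The most abundant marker was HSD3B1, a steroid-making enzyme, at 23378 UQRPKM after SMAD4-siRNA and 12334 after NC-siRNA, a ratio of 1.9 (1.85 to 1.94), and INHBA, an activin subunit, had a ratio of 1.31 (1.22 to 1.41). With HSD3B1 as the largest part, the 19 markers summed to 28545 UQRPKM after SMAD4-siRNA and 17278 after NC-siRNA, and 2 of the 15 tested had an interval above 1 and 2 one below. FSHR had 7 and 9 reads, and AMH, CYP19A1, CYP11A1 and INHBB were listed at 0 in both libraries. Smooth muscle and stromal genes were strong beside them: the 6 smooth muscle markers summed to 468979 UQRPKM after SMAD4-siRNA and 709834 after NC-siRNA, most of it ACTA2 with 341635 and 549693. Of these markers 4 had an interval below 1, DES was above 1 at 1.16 (1.11 to 1.22), and MYH11 was listed at 0. The 7 stromal markers summed to 47401 UQRPKM after SMAD4-siRNA and 55835 after NC-siRNA, with 4 of 7 intervals below 1 and 1 above. Most of the sum was COL3A1, at 28474 after SMAD4-siRNA and 37062 after NC-siRNA. COL1A1, at 14344 and 13567, had the interval above 1. Over all genes tested, 12.7% of intervals lay above 1 and 21.5% below. Among all genes with at least 100 reads, as 5 smooth muscle and 6 stromal markers had, these shares were 17.6% and 32.4%. The smooth muscle sum, mostly ACTA2, and the stromal sum, mostly COL3A1, were lower after SMAD4-siRNA, as were DKK3, SFRP2, CTNNB1 and FZD4. The granulosa sum was higher, mostly through HSD3B1. Of the 15 granulosa markers tested, 8 lay above a log2 ratio of 0 and 7 below, with a median of 0.05. The part of these cell types in the differences of DKK3, SFRP2, CTNNB1 and FZD4 was not tested. In pooled RNA, fewer cells of a type and less RNA per cell cannot be told apart. Theca markers CYP17A1, INSL3 and LHCGR, the epithelial EPCAM and CDH1 and the leukocyte CD3E and CD163 were listed at 0 in both libraries. The endothelial markers summed to 341 UQRPKM after SMAD4-siRNA and 445 after NC-siRNA, with TEK and EMCN listed at 0. The leukocyte markers summed to 568 and 581, nearly all of it CD14 with 566 and 579. The epithelial markers summed to 467 and 422, most of it KRT8 with 428 and 386. Theca, oocyte and erythroid markers stayed below 100 UQRPKM in sum in both libraries.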

How the data were processed

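Total RNA of pooled granulosa cells was sequenced on an Ion Torrent Proton instrument from an Ion Total RNA-Seq library, per the labels' protocols. The authors' deposited tables hold RPKM with upper-quartile scaling, as their names state. Aligner, counter, build and annotation: not given in the sources used here.

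Whole reads were recovered with the divisors 980 (SMAD4-siRNA) and 890 (NC-siRNA). All 18428 genes above 0 gave whole reads at a length of up to 40000 bases (relative tolerance 2e-09, absolute 1e-06). The smallest were kept, so true intervals can be narrower. Genes whose mean value reached 1 were compared by log2((SMAD4-siRNA + 1)/(NC-siRNA + 1)), and called at a size of at least 1. This scale understates changes of low genes, so single genes are given as plain ratios.

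Members and lists were chosen with earlier results of these data known. Named were members with an interval excluding 1, past 2-fold or leading a class, and up to 3 genes at each end of a further list with at least 20 reads. The other members are given by value or range, and other genes outside the rule are marked. Of 19902 IDs without a symbol, 2090 were named from a RefSeq table of assembly Sscrofa11.1. Alternatives were other pseudocounts, minimums, thresholds and scalings. The steps were tested on simulated data with Python 3.11.15, scipy 1.17.1 and pandas 2.3.3.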

Additional observations from a re-analysis of the deposited data

How the results depend on the processing

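No paired analysis was possible because there is 1 library per group. For the same reason no library could be left out. The 2 members higher by 2-fold became 0 at a 4-fold threshold, with a minimum mean value of 5, with a pseudocount of 5, after rescaling both tables to the TPM sum, and with at least 100 reads, an alternative chosen after seeing the data. Both have few reads and low values, which these settings other than the 4-fold threshold remove or shrink. The 4-fold threshold asks for more than their log2 ratios of 1.07 (RNF43) and 1.22 (WNT3). Under the same settings 1.32% to 4.13% of all genes were higher. The 0 members lower by 2-fold became 2 at 1.5-fold, FZD4 and WNT5A, and 1 with no minimum, RSPO4, from 1 read. Of all genes, 13.7% were lower by 1.5-fold, and 7.55% by 2-fold with no minimum. At 1.5-fold 3 members were higher, against 13.5% of all genes. Counts of intervals ran from 3 to 5 above 1 and from 7 to 9 below 1 under the alternatives run, and the median log2 ratio from -0.15 to -0.02. After rescaling to the TPM sum the intervals of GSK3A and TCF7L1 lie above 1 and that of SFRP5 holds 1. Of 185 log2 ratios of single members under 5 alternatives, 171 stayed within their counting interval, 14 moved outside it and 0 with an interval excluding 1 or past 2-fold changed sign. Depth limits the ligands: WNT5B, the WNT member with the most reads, has an interval from 0.774 to 1.56.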

Other observations

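Entries that the tables list without a symbol, and that the reference table names as genes of the same families, lay outside the choice of members. WNT7B, a ligand of the beta-catenin branch, was at 36.4 UQRPKM after SMAD4-siRNA, from 49 reads, against 9.01 after NC-siRNA, from 11 reads, a ratio of 4.05 (2.08 to 8.63). On these values it would be the second WNT by level after SMAD4-siRNA, and its interval excludes 1 as that of WNT10B does. TCF7, a TCF factor listed as a miscellaneous RNA, was at 100 UQRPKM after SMAD4-siRNA and 142 after NC-siRNA, a ratio of 0.702 (0.606 to 0.814). FZD10 had a ratio of 0.929 (0.596 to 1.45) on 44 reads after SMAD4-siRNA and 43 after NC-siRNA. WNT10A had 1 and 2 reads, and WNT6 and WNT9B were listed at 0 in both libraries. WIF1, a secreted WNT binder with 1 read under its own symbol, had a second entry with 14 reads after SMAD4-siRNA and 7 after NC-siRNA, a ratio of 1.82 (0.686 to 5.32). With these entries 3 of 41 members tested were higher by 2-fold, against 7.17% of all genes tested, so this count is near the background. The third was WNT7B, and this addition was chosen after seeing the data. The assignment of reads to such entries is not stated in the labels.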
